A study of Mus musculus with 59 samples.

Results

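Gm32468 and 9030619P08Rik are a pair of mouse genes that do not code for a protein and whose RNA was almost undetected in brown adipose tissue (BAT) of hypothyroid mice and abundant within a day of thyroid hormone (TH). They are 2 of the 55341 genes listed in each of the 3 count tables of the series. They were chosen from the WT time course itself. At 24 h they had the largest and the next largest fitted increase within a subset of the genes tested. The subset held genes with an adjusted p under 0.05, a mean normalized count over 50 and every treated mouse above every untreated one. The levels of the 2 chosen genes in WT mice after TH are therefore given below as a description, without a test. The tests of these genes come from BATKO mice, from housing temperature and from diet, none of which was used to choose them.

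The study profiled BAT by RNA sequencing in 59 male C57BL/6J mice aged 8-12 weeks. In the TH experiment, 20 wild-type (WT) mice were made hypothyroid with propylthiouracil (PTU), a drug that blocks hormone synthesis; 4 were taken without hormone, and groups of 4 followed 3, 6, 12 or 24 h after 1 injection of T3 and T4, and 10 BATKO mice on PTU were taken without hormone (5) or 24 h after TH (5). The temperature experiment compared CTRL mice at 30 °C (4) and 4 °C (3) with BATKO mice at 30 °C (5) and 4 °C (4). The diet experiment compared CTRL mice on chow (4) and HFD (4) with BATKO mice on chow (2) and HFD (3). The names of the deposited data give 24 h for the temperature experiment and a few days for the diet experiment. The atlas paper that used hormone-treated BAT gives 2 weeks of PTU in food. The genetic change behind the name BATKO, the driver that produces it and the genotype of the CTRL mice are not described in the sources used here, and PTU was shared by every mouse of the TH experiment, so that experiment holds no mouse with its own hormone supply. A mouse number in the labels names 1 mouse, and nothing says whether mice of a group shared a litter.

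Thyroid hormone acts mainly through nuclear receptors, encoded by Thra and Thrb, which sit on DNA with a retinoid X receptor; T3 binding replaces corepressors by coactivators and raises transcription of target genes. Brown fat is a classic target tissue: its deiodinase, Dio2, makes T3 from T4 locally, and cold exposure, through sympathetic nerves, raises both Dio2 and the uncoupling protein Ucp1. A long intergenic noncoding RNA (lincRNA) is a spliced transcript between protein-coding genes with no long reading frame, and an unprocessed pseudogene is a duplicated gene copy that has lost its coding function but can still be transcribed.

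Gm32468 is annotated as a lincRNA on the plus strand of chromosome 10 (GRCm38, 10:93084206-93093727), with exons that cover 1076 bases of a gene body of 9522 bases. Its annotated start faces that of Cfap54, a gene for a ciliary protein on the minus strand, across a gap of 2588 bases, and no other annotated gene overlaps it. RefSeq gives 2 starts for Gm32468. The promoter of the first is shown because the RNA responded to TH: it covers 250 bases before to 50 bases after the start on the plus strand (GRCm38.p6, chr10:93083986-93084285), and the capitals mark AGGTCA, the half-site that thyroid hormone receptors and many other nuclear receptors bind.

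Gm32468 promoter: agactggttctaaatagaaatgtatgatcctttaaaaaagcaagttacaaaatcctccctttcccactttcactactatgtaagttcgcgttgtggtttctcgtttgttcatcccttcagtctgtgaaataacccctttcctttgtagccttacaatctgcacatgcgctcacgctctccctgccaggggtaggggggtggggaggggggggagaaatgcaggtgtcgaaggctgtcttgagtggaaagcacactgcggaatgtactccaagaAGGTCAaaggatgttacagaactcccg

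This promoter holds 1 half-site on the plus strand, which begins 23 bases downstream of the first base of the transcript, and none on the other strand. The promoter of the second start (chr10:93084987-93085286, plus strand) has none on either strand. Of all 32817 RefSeq mouse promoters of this length, 16.3% hold the half-site on either strand, so a match of 6 letters is common. The direct repeat of the half-site with 4 bases between the copies was in 0.0152% of the promoters and in neither of these. These are matches of letters and not binding sites.

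9030619P08Rik is annotated as a transcribed unprocessed pseudogene on the minus strand of chromosome 15 (GRCm38, 15:75427606-75431829), with exons that cover 935 bases of 4224. It lies among genes of the Ly6 family, which code for small proteins held on the cell surface by a lipid anchor. By alignment score, the annotated transcripts most like its own were those of Ly6g (77.2% identity over 945 aligned bases) and Ly6a, also called Sca-1 (77.3% over 926 bases). The most alike ungapped stretch of 60 bases that it shares with the coding sequence of Ly6a (15:74994877-74998031, minus strand) is shown because it tells how far reads of the Ly6 genes could be placed on the pseudogene. Capitals mark the bases that differ.

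9030619P08Rik: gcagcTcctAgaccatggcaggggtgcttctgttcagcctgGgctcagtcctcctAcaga

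Ly6a: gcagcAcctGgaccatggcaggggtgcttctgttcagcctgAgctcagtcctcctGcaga

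The stretches are bases 429 to 488 of the pseudogene transcript and 365 to 424 of the Ly6a transcript, and 56 of the 60 bases match. Of the 1030 stretches of 50 bases in the pseudogene transcripts, 4 (0.388%) occurred without a difference in a transcript of another gene, which was I830127L07Rik in each case. None of the 1027 such stretches of Gm32468 occurred in another gene's transcript, and its closest other transcripts aligned over at most 172 bases. The counts of 9030619P08Rik are nevertheless uncertain to the extent that reads of a related gene were placed there, and the counts of related genes are given with its results for that reason. Whether reads were counted by strand is not given in the sources used here.

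The total count per mouse ran from 7612059 to 18073627, and genes of the mitochondrial genome took 39.25% to 55.66% of it. Levels are counts per 1000000 (CPM) on TMM-scaled totals; TMM is a scaling that evens out the bulk of genes between mice, set within each table, so levels of separate tables are set side by side below but not tested. A floor of 3 counts per mouse is used for folds: where every mouse of the lower group is at or under it, the fold is a lower bound. In the WT mice before TH the floor was 0.239 CPM. Counting intervals cover counting error only, since the libraries carry no molecular identifiers in the sources used here.

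Gm32468 was barely present in PTU-fed WT mice and had a higher mean at each later time. The 4 PTU-fed mice had 0, 1, 1 and 2 counts. At 3 h, mice B7, B8, B9 and B11 had 6, 23, 15 and 59 counts. Every treated mouse lay above every control mouse as early as 3 h, although the treated mice differed from each other by nearly an order of magnitude. At 6 h the counts were 57, 83, 101 and 57, at 12 h 352, 459, 465 and 404, and at 24 h 1010, 899, 627 and 1155. Relative to the mean, the spread among mice was smaller at these times than at 3 h. The group mean was 0.0765 ± 0.0539 CPM under PTU, then 1.78 ± 1.397 (3 h), 5.70 ± 1.79 (6 h), 42.2 ± 10.2 (12 h) and 77.1 ± 21.5 (24 h) (SD, n = 4 each). Neighbouring times did not overlap between PTU and 12 h, whereas 28.4 to 50.4 CPM at 12 h and 46.6 to 96.2 CPM at 24 h did. Against the floor the mean was at least 7.43-fold higher after 3 h and at least 23.8-fold after 6 h, and by 12 and 24 h at least 176-fold and 322-fold. The ratio of mean CPM was 3.20 from 3 to 6 h, 7.40 from 6 to 12 h and 1.83 from 12 to 24 h, over steps of unequal length. Mouse B11 carried the 3 h mean: without it the bound at 3 h was 4.72-fold and the ratio from 3 to 6 h 5.05.

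9030619P08Rik was as scarce before TH and came close to its 24 h level by 12 h. The PTU-fed WT mice had 0, 0, 0 and 2 counts. At 3 h the counts were 6, 6, 6 and 2, the last in mouse B11, the mouse with the most Gm32468 at that time. The treated and control mice overlapped at 3 h for this gene, so that no rise could be read there. Later counts were 38, 27, 74 and 64 at 6 h, then 156, 135, 155 and 167 at 12 h and 186, 113, 213 and 348 at 24 h. From 6 h on every treated mouse exceeded every control mouse, while 12 h (12.6 to 20.5 CPM) lay within the range of 24 h (10.8 to 23.9 CPM). From a mean of 0.0440 ± 0.0879 CPM under PTU it went to 0.381 ± 0.170 by 3 h, 3.71 ± 1.17 by 6 h, 15.3 ± 3.53 by 12 h and 17.1 ± 5.41 by 24 h (SD, n = 4 each). Against the floor the means from 6 h on were at least 15.5-fold, 64.1-fold and 71.3-fold higher. The ratio from 12 to 24 h was 1.11.

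**Figure D1:**
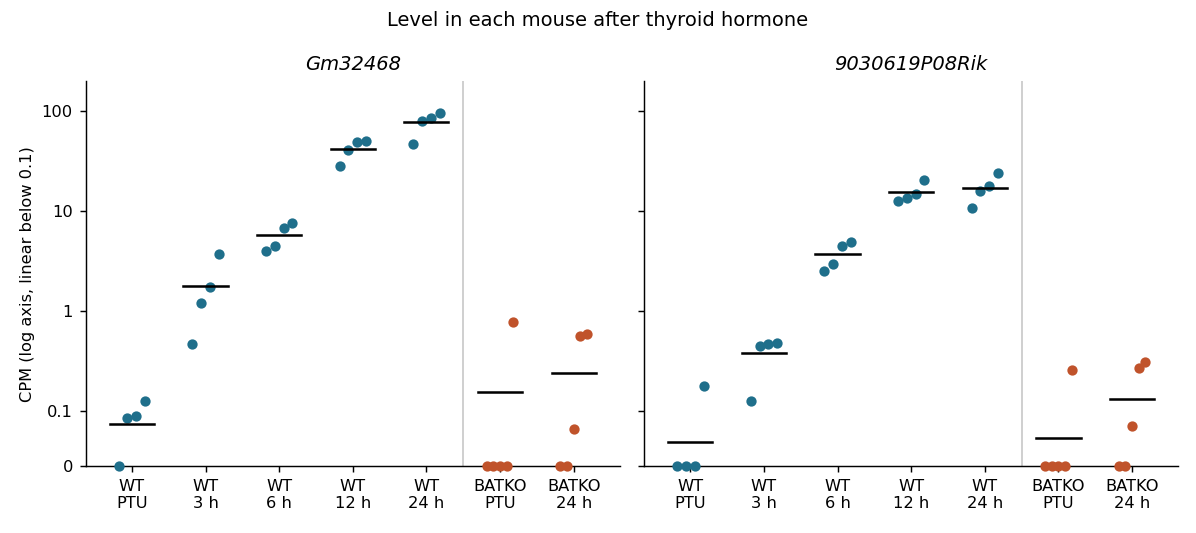
CPM of Gm32468 and 9030619P08Rik in each mouse of the TH experiment (points; bars are group means), on a log axis that is linear below 0.1 CPM, with WT mice in blue and BATKO mice in orange. In WT mice both genes went from at most 0.176 CPM to 46.6-96.2 and 10.8-23.9 CPM at 24 h, while no BATKO mouse exceeded 0.768 CPM.

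The level of each gene was set against all annotated genes of its class, of which few passed the count filter given below. The ranks are a description: the 24 h levels are among the values that chose the genes. The ranks under PTU rest on 4 counts of Gm32468 and 2 of 9030619P08Rik in all. Per kilobase of exon, Gm32468 reached 71.6 CPM at 24 h, which placed it 4th of 5843 annotated lincRNAs, from 581st under PTU. 9030619P08Rik reached 18.3 CPM per kilobase, 257th of 13505 annotated pseudogenes, from 2742nd under PTU. The values that chose the genes were the fitted log2 changes in WT mice: at 24 h 9.77 for Gm32468 and 8.44 for 9030619P08Rik, with Slco4a1, an organic anion transporter gene, next at 7.08. At 3 h Gm32468 was second with 4.38, between Slco4a1 at 5.67 and B430219N15Rik at 3.79. The order of these log2 changes holds within the subset of genes described at the start, formed anew at each time. Of the 192 lincRNAs that passed the filter in WT mice (a mean normalized count over 10), 33 were called higher at 24 h, or 17.2%, the same share as among all genes tested. Of 1047 pseudogenes tested, 139 (13.3%) were. A call throughout is an adjusted p under 0.05, by the Benjamini-Hochberg method, in the quasi-likelihood test of edgeR.

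The approach to the 24 h level differed between the genes. As a share of the mean rise at 24 h, Gm32468 had reached 2.21% ± 1.81 at 3 h, 7.30% ± 2.32 at 6 h and 54.7% ± 13.3 at 12 h (SD, n = 4 each). 9030619P08Rik had reached 1.98% ± 1.00, 21.5% ± 6.89 and 89.8% ± 20.7 at the same times. At 6 and at 12 h every mouse had a larger share for 9030619P08Rik than any mouse of that time for Gm32468. Hr, a corepressor gene and a textbook direct target of T3, had reached 48.8% ± 19.1 of its 24 h rise at 3 h, 38.5% ± 11.0 at 6 h and 48.9% ± 15.0 at 12 h. Klf9, a transcription factor gene with T3 response elements, stood at 163% ± 21.2 of its 24 h rise at 3 h and at 181% ± 15.5 at 12 h. Most of the increase of both noncoding RNAs thus lay after 6 h, and at 3 h every mouse had a larger share for Hr and for Klf9 than for either of them. Other T3 targets were late too. Thrsp stood at -11.7% ± 8.64 of its 24 h rise at 3 h and at 38.3% ± 54.8 at 12 h. The mean of Me1 lay under its PTU level at 3, 6 and 12 h. A late rise was thus not particular to the noncoding genes.

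**Figure D2:**
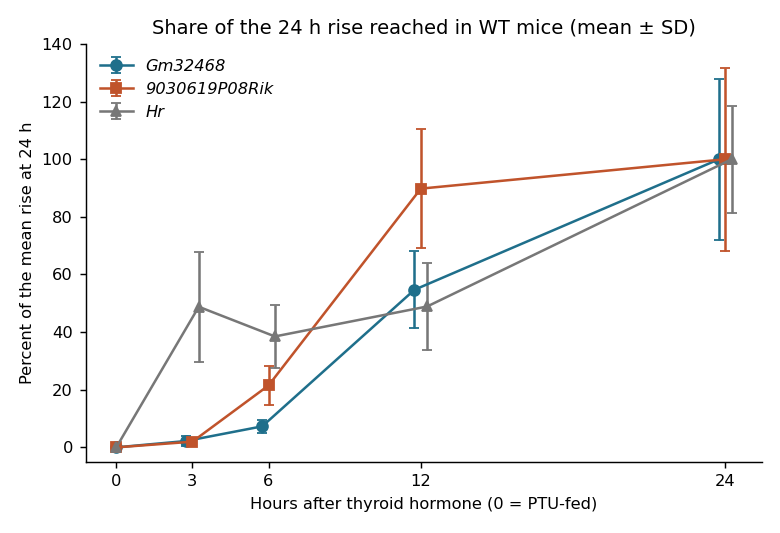
Share of the mean rise at 24 h reached at each time in WT mice (percent, mean ± SD, n = 4) for Gm32468, 9030619P08Rik and the T3 target Hr, with PTU-fed mice at 0. At 3 h Hr stood at 48.8% and the noncoding genes at 2.21% and 1.98%; at 12 h 9030619P08Rik (89.8%) was ahead of Gm32468 (54.7%).

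The ratio of Gm32468 to 9030619P08Rik in a mouse, in CPM, had a median of 1.43 at 6 h, 2.71 at 12 h and 4.37 at 24 h, with a range of 2.94 to 7.96 at 24 h. At 3 h it ran from 1.00 to 29.5, from counts as low as 2. Over the 20 WT mice their log2 CPM had a Pearson correlation of 0.949 and a Spearman correlation of 0.914. Over the 16 TH-treated mice alone the values were 0.902 and 0.865. These mice share the time course, which by itself makes any pair of rising genes correlate.

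In BATKO mice both genes stayed low after TH. For Gm32468, the 5 PTU-fed BATKO mice had 0, 0, 12, 0 and 0 counts and the 5 TH-treated ones had 9, 1, 8, 0 and 0. For 9030619P08Rik the counts were 0, 0, 4, 0 and 0 under PTU and 5, 4, 1, 0 and 0 after TH. The groups overlapped for both genes, and the single PTU-fed mouse with counts was mouse 4 in each case. Mean levels of Gm32468 were 0.154 ± 0.343 CPM under PTU and 0.242 ± 0.302 after TH (SD, n = 5 each), a log2 change of 0.62 (SE 1.06, adjusted p = 0.986, edgeR). Those of 9030619P08Rik were 0.0512 ± 0.114 and 0.131 ± 0.149 CPM, a log2 change of 1.25 (SE 1.00, adjusted p = 0.969, edgeR). Neither change passed the test. Both genes passed the count filter of this table only through the treated WT mice; the exact two-sided permutation test of mean CPM, which needs no filter, gave p = 0.841 and 0.286, where 0.00794 is the smallest possible. Of 14178 genes tested in BATKO mice, 0% were called higher and 0% lower after TH, against 673 at an unadjusted p under 0.05, and DESeq2 called none either. Without mouse 4 no PTU-fed BATKO mouse had a count of either gene and the fitted changes became 4.78 and 3.97, sizes that then depend on the prior count, with adjusted p of 0.615 and 0.573.

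As a description, since WT mice chose the genes, the mean CPM at 24 h in WT mice was 318 times that of BATKO mice for Gm32468 and 131 times for 9030619P08Rik. The pooled counts gave ratios of 295 (95% exact interval 186 to 498) and 124 (66.9 to 259). Without treated BATKO mouse 9 the first ratio of means was 494, and without treated BATKO mouse 7 the second was 199. Put otherwise, treated BATKO mice held 0.314% and 0.765% of the WT level. Summed markers of brown adipocytes differed in the same direction: they ran from 8720 to 16425 CPM in WT mice at 24 h and from 1860 to 3580 CPM in treated BATKO mice, with all 7 markers over 1 CPM in both. That sum was largely Ucp1, itself on the list of hormone targets, at 87.8% and 64.6% of it. Without Ucp1 and Dio2, a sum added after the data were seen, the ranges were 976 to 1180 and 632 to 1140 CPM and overlapped, while under PTU they were 1680 to 2170 and 728 to 904 CPM and did not. Other markers also separated the treated WT and BATKO mice: adipocyte markers (4020 to 4300 against 7080 to 11797 CPM) and endothelial markers (273 to 306 against 375 to 512 CPM) were lower in WT mice, and macrophage markers (12.4 to 19.5 against 6.26 to 11.5 CPM) higher. In whole tissue, fewer cells of a type and less RNA per cell cannot be told apart, and the part of these markers in the result was not tested.

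The thyroid hormone pathway around these genes was measured with a list of 35 genes, of which 30 were tested in WT mice. At 3 h, 11 were called higher and 1 lower, with 5.1% of all genes called higher and 4.09% lower. At 6 h the numbers were 12 and 5, with 12.1% and 10.9% of all genes. At 12 h they were 12 and 3, with 13.6% and 12.1%. At 24 h they were 10 and 5, with 17.2% and 15.5%. Of the 10 called higher at 24 h, 8 were among the 11 listed targets, whose median log2 change was 0.93 against 0.01 over all genes. These 8 include Desi1 and Stat5a, which the atlas paper names as raised by T3 in most cell types. Its data include BAT after PTU and TH. How many targets were called is thus not independent of how the list was made. In BATKO mice 0 of 30 were called by edgeR or by DESeq2, with 0% of all genes called. Of the 30, 3 (Klf9, Rxra and Slc16a10) had an unadjusted p under 0.05.

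Neither receptor gene was called higher in WT mice. Thra went from 27.9 ± 4.02 CPM under PTU to 18.7 ± 1.99 at 12 h, a log2 change of -0.57 (SE 0.12, adjusted p = 0.00162, edgeR), and Thrb had 35.9 ± 2.01 CPM under PTU and 42.2 ± 3.32 at 24 h (0.23, adjusted p = 0.126; SD, n = 4). Dio2 rose to 524 ± 129 CPM at 6 h from 117 ± 85.7, a change of 2.14 (SE 0.54, adjusted p = 0.00648), whereas Dio1 and Dio3 were too low to test. Hr rose already at 3 h, from 1.03 ± 0.293 to 12.4 ± 4.47 CPM (3.57, SE 0.31, adjusted p = 1.33e-07), and reached 24.4 ± 4.33 at 24 h. Klf9 rose from 77.8 ± 7.31 to 265 ± 24.4 CPM at 3 h (1.75, SE 0.10, adjusted p = 9.20e-10). Thrsp, a regulator of lipogenesis, rose at 24 h alone among the times (0.68, SE 0.21, adjusted p = 0.0175), and Me1, which makes NADPH for fatty acid synthesis, fell at 6 h (-0.89, SE 0.21, adjusted p = 0.00369) and was not called at the other times. None of these named genes was called in BATKO mice after TH, where 0% of all genes were.

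Cold CTRL mice had more Gm32468 than warm ones, at a level well under that after TH. The 3 CTRL mice at 4 °C had 51, 16 and 44 counts, and the 4 at 30 °C had 0, 1, 4 and 3. Every cold mouse lay above every warm mouse. The means were 4.15 ± 1.96 CPM (SD, n = 3) and 0.176 ± 0.161 CPM (SD, n = 4), a ratio of 23.6; the pooled counts gave 25 (95% exact interval 12.2 to 59.3). The mean normalized count over the temperature table, 9.72, was just under the filter of 10, so the test was an exact two-sided permutation test of the mean CPM: p = 0.0286, the smallest that 3 against 4 mice allow, and 0.152 after Benjamini-Hochberg adjustment over the 16 such tests of both genes. With no filter, edgeR gave a log2 change of 4.52 (SE 0.66, adjusted p = 6.27e-06), among 12.7% of all genes with a count that were called higher, and the call held without any one mouse (adjusted p of 9.39e-05 or less). In CPM of the separately scaled TH table, WT mice 24 h after TH had 18.6 times the level of the cold CTRL mice.

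In BATKO mice in the cold Gm32468 stayed low. The 4 BATKO mice at 4 °C had 0, 4, 5 and 1 counts, and the 5 at 30 °C had 0, 0, 0, 1 and 0. The groups overlapped at 0. The means were 0.269 ± 0.264 CPM (SD, n = 4) and 0.0175 ± 0.0390 CPM (SD, n = 5), with an exact permutation p of 0.0476 and 0.152 after adjustment. edgeR with no filter gave 3.28 (SE 1.08, adjusted p = 0.0317), with 10% of all genes with a count called higher, from 10 counts against 1; leaving out any one of cold mice 8 and 11 or warm mice 13, 14, 15 and 17 took the adjusted p to between 0.0547 and 0.146.

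At 4 °C the genotypes did not overlap for Gm32468, at 16 to 51 counts in CTRL and 0 to 5 in BATKO mice. The ratio of the mean CPM was 15.4 (23.6 without cold BATKO mouse 11), with 16.5 (95% exact interval 8.62 to 35.3) from pooled counts. The exact permutation p was 0.0286, again the smallest possible, and 0.152 after adjustment. In edgeR with no filter the log2 difference of BATKO from CTRL mice was -3.94 (SE 0.64, adjusted p = 0.00188), 14th by p among the 171 genes called lower, which were 0.634% of the genes tested, and the call held without any one mouse. At 30 °C the genotypes overlapped (exact permutation p = 0.0873, 0.200 adjusted). Whether the cold response differed between genotypes was tested as an interaction: it was -1.23 in edgeR with no filter (adjusted p = 1.00) and -1.05 in DESeq2 with no filter (SE 1.43, adjusted p = 0.999), with 1 count in all 5 warm BATKO mice. A lower level in cold BATKO mice was thus measured, and a smaller fold was not.

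Markers moved with temperature as well. Summed brown adipocyte markers were 16621 to 20012 CPM in cold and 477 to 2170 CPM in warm CTRL mice, and 8580 to 16301 and 1020 to 2040 CPM in BATKO mice. Without Ucp1 and Dio2 they were 2490 to 2870 and 330 to 799 CPM in CTRL mice and 1400 to 2560 and 588 to 842 CPM in BATKO mice. Summed red cell markers were 692 to 1540 CPM in cold and 160 to 297 CPM in warm CTRL mice, and Schwann cell markers 128 to 161 and 46.4 to 70.7 CPM. Adipocyte markers (9450 to 10213 against 4710 to 5950 CPM) were also higher in cold CTRL mice, and macrophage markers (15.7 to 19 against 19.9 to 31.7 CPM) and T and B cell markers (0.246 to 0.537 against 1.17 to 2.32 CPM) lower, each without overlap. Between genotypes at 4 °C, Schwann cell markers did not overlap either, at 40.8 to 102 CPM in BATKO mice, nor did the whole brown adipocyte sum. Their part in the Gm32468 values was not tested. Over the pathway list, 14 of 30 genes were called higher and 7 lower in cold CTRL mice, with 26.5% and 22.6% of all genes called. In cold BATKO mice 12 were higher and 5 lower, with 21.4% and 18.9% of all genes. Hr was not called in CTRL mice: it was 2.04 ± 0.672 CPM in cold and 6.55 ± 6.03 CPM in warm CTRL mice (-1.67, SE 0.75, adjusted p = 0.0767). It fell in cold BATKO mice (-2.19, SE 0.66, adjusted p = 0.0151, edgeR). Klf9 was not called in either genotype (0.12 and -0.12), while Dio2 rose in both (3.83, SE 0.92, adjusted p = 0.00253, and 3.21, SE 0.80, adjusted p = 0.00432).

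9030619P08Rik stayed near the floor in cold as in warmth. The CTRL mice at 4 °C had 2, 1 and 1 counts and those at 30 °C had none. The BATKO mice had 0, 0, 0 and 3 counts at 4 °C and 0, 3, 2, 2 and 5 at 30 °C. With every CTRL mouse under the floor of 3 counts no fold is given. The exact permutation p was 0.0286 in CTRL and 0.206 in BATKO mice (0.152 and 0.367 adjusted), and edgeR with no filter called neither (adjusted p = 0.0713 and 0.427). WT mice 24 h after TH had at least 49.8 times the level of the cold CTRL mice, whose counts lay under the floor, across separately scaled tables. The genotypes overlapped at 4 °C (exact permutation p = 0.400), and at 30 °C, where CTRL mice had no count, the exact permutation p was 0.0476 (0.152 adjusted; edgeR with no filter, adjusted p = 0.725). The interaction of genotype and temperature was -5.07 in edgeR with no filter (adjusted p = 0.236) and -4.68 in DESeq2 with no filter (adjusted p = 0.479), and -7.99 in edgeR without cold BATKO mouse 12 (adjusted p = 0.123). None of these passed, and their sizes are not well set, since warm CTRL mice had no count.

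On chow and HFD both genes were at or near the floor. For Gm32468 the CTRL mice had 1, 0, 0 and 0 counts on chow and 0, 2, 0 and 0 on HFD, and the BATKO mice had 0 and 0 on chow and 0, 4 and 0 on HFD. For 9030619P08Rik the CTRL mice had no count on chow and 1, 3, 0 and 2 on HFD, and the BATKO mice had 1 and 2 on chow and 1, 3 and 2 on HFD. A single mouse of the 13 was over the floor for either gene. The 8 exact permutation p-values of these comparisons were between 0.0667 and 1.00, and edgeR with no filter called none (adjusted p of 0.133 or more). For 4 of the 8, those between BATKO diets and between genotypes on chow, the smallest possible p was 0.1 or 0.0667, so that they could not pass. The 0.0667 of 9030619P08Rik between genotypes on chow was that smallest value, without overlap, at 1 and 2 counts against none in 4 mice. A count of 0 in a CTRL mouse on chow allows a level of up to 0.326 CPM on average.

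**Figure D3:**
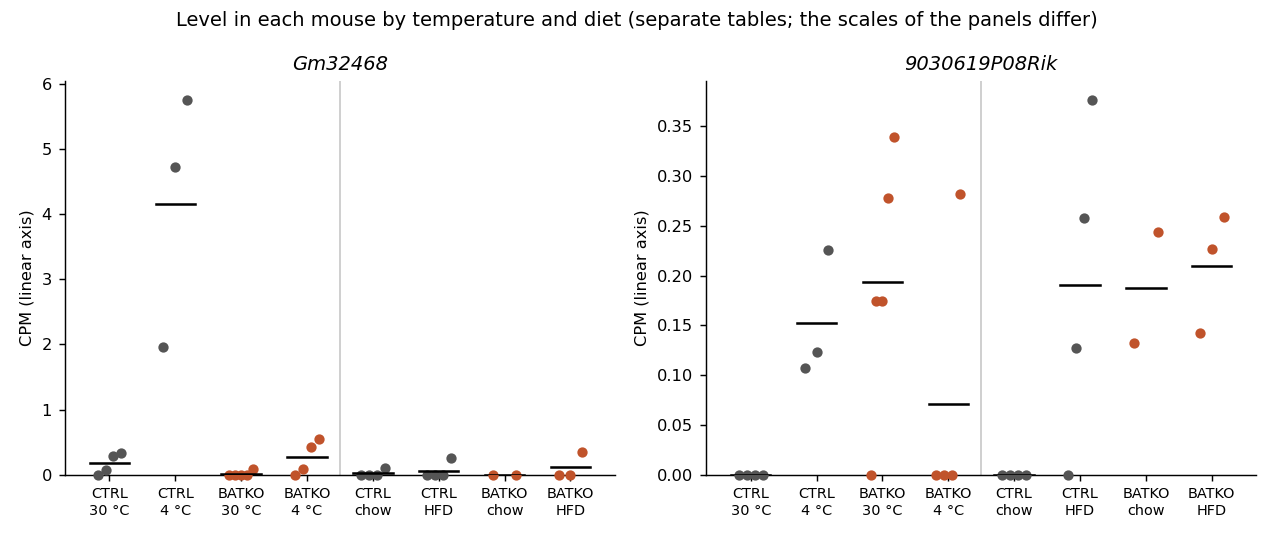
CPM of each gene in each mouse by temperature and diet (points; bars are group means), on linear axes whose scales differ between the panels, with CTRL in grey and BATKO in orange. Gm32468 reached 1.97 to 5.75 CPM in the CTRL mice at 4 °C and at most 0.549 CPM in any other group, while 9030619P08Rik did not pass 0.376 CPM anywhere.

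Ordered by mean CPM over all 15 groups, Gm32468 stood highest at 24 h after TH, then at 12 h, 6 h, in cold CTRL mice and at 3 h, with the other 10 groups at or under 0.269 CPM. Cold CTRL mice (1.97 to 5.75 CPM) overlapped with WT mice at 6 h (3.96 to 7.66) and at 3 h (0.472 to 3.73). For 9030619P08Rik the order was 24 h, 12 h, 6 h and 3 h after TH, and the other 11 groups lay at or under 0.209 CPM. These 11 overlapped each other except where a group had no count at all, and the range at 3 h (0.126 to 0.476 CPM) reached into theirs. The 15 groups come from 3 tables scaled separately.

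The 5 genes whose log2 CPM was most like that of Gm32468 over the 20 WT mice were Gpd2 (Pearson 0.975), Fbxl2 (0.964), Cgrrf1 (0.962), Epas1 (0.958) and Mcee (0.956), among 13003 genes tested. 9030619P08Rik was 11th. Gpd2, the mitochondrial glycerol-3-phosphate dehydrogenase and a known T3 target, went from 598 ± 60.8 CPM under PTU to 1640 ± 222 at 24 h. Fbxl2, a substrate adaptor of a ubiquitin ligase, went from 0.387 ± 0.211 to 10.9 ± 1.80 CPM, and Epas1, the hypoxia factor HIF-2α, from 208 ± 25.2 to 715 ± 156 (SD, n = 4 each). Outside the mice that chose them, none of the 5 was called after TH in BATKO mice, where 0% of all genes were. All 5 were called higher in cold CTRL mice, where 26.5% of all genes were, with Fbxl2 the highest (2.94, SE 0.37, adjusted p = 8.41e-06) and Epas1 the lowest (0.96, SE 0.13, adjusted p = 1.37e-05). All 5 were called higher in cold BATKO mice too, from 0.42 (Epas1, adjusted p = 0.00629) to 1.24 (Fbxl2, adjusted p = 0.00943), where 21.4% of all genes were.

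The 5 genes most like 9030619P08Rik were Ank2 (Pearson 0.985), Afg3l2 (0.964), Fndc5 (0.962), Dnaja3 (0.960) and Snx24 (0.956), with Gm32468 13th. Ank2 codes for an ankyrin that ties membrane proteins to the cytoskeleton and went from 5.31 ± 0.690 to 25.6 ± 2.28 CPM at 24 h. Fndc5, the precursor of irisin, went from 0.238 ± 0.151 to 16.6 ± 8.74 CPM (SD, n = 4 each). In the cold these genes split. The mitochondrial quality genes Afg3l2 (1.01, SE 0.13, adjusted p = 1.47e-05) and Dnaja3 (1.89, SE 0.16, adjusted p = 1.71e-07) were called higher in CTRL mice. Ank2 (-0.16, adjusted p = 0.639), Snx24 (0.13, adjusted p = 0.669) and Fndc5 (1.52, adjusted p = 0.257) were not called there, and in cold BATKO mice Afg3l2 (0.64, adjusted p = 4.35e-04) and Dnaja3 (0.98, adjusted p = 3.85e-05) rose while Ank2 fell (-0.66, SE 0.23, adjusted p = 0.0312). As with the other set, none was called after TH in BATKO mice, where 0% of all genes were.

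**Figure D4:**
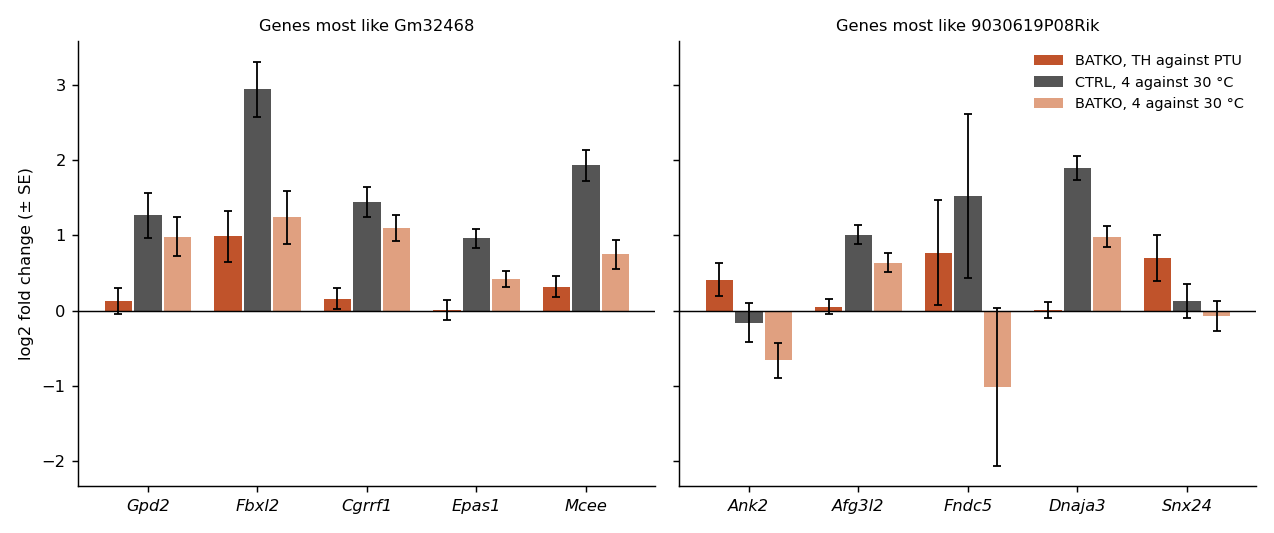
log2 fold change (bars; error bars are SE from edgeR) of the 5 genes most like each noncoding gene, in BATKO mice after TH and in the cold in each genotype. The 5 genes most like Gm32468 were all called higher in cold CTRL mice (0.96 to 2.94); of the 5 most like 9030619P08Rik, Afg3l2 (1.01) and Dnaja3 (1.89) were called, and Fndc5 (1.52) was not.

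The genes around Gm32468 were measured too. That they changed less than it did follows from its choice by size of change. Of 21 annotated genes within 500000 bases, 6 were tested in WT mice, and at 24 h 2 of these were called higher and none lower, with 17.2% of all genes called higher. Cdk17, a kinase gene 67.1 kb downstream, rose from 26.3 ± 3.94 to 47.4 ± 3.84 CPM (SD, n = 4 each), a log2 change of 0.85 (SE 0.15, adjusted p = 2.18e-04, edgeR), and was already at 47.5 ± 11.3 CPM at 3 h. Cfap54, which starts 2.59 kb away on the opposite strand, was at 3.43 ± 0.422 CPM under PTU and 4.26 ± 0.915 at 24 h (0.31, adjusted p = 0.278), with calls at 6 and 12 h only. Snrpf, a spliceosome subunit gene 489 kb away, had the largest change of the 6 at 24 h (1.07, SE 0.33, adjusted p = 0.0168), from 0.587 CPM. In cold CTRL mice Cdk17 rose (0.71, SE 0.21, adjusted p = 0.00987) and Cfap54 fell (-0.88, SE 0.29, adjusted p = 0.0198). In cold BATKO mice Cdk17 rose as well (0.60, SE 0.18, adjusted p = 0.0156), and Cfap54 was not called (-0.53, SE 0.24, adjusted p = 0.0940). None of the 3 was called in BATKO mice after TH, where 0% of all genes were, with Cdk17 at 0.00 (SE 0.14).

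Around 9030619P08Rik, 13 of 49 annotated genes within 500000 bases were tested in WT mice. At 24 h, 4 of these were called higher (Ly6e, Naprt, Pycrl and Tigd5) and none lower, each between 459 and 485 kb away, with 17.2% of all genes called higher and 15.5% lower. The nearest tested genes on either side were Gpihbp1, 165 kb off, which holds lipoprotein lipase on capillaries (0.46, SE 0.20, adjusted p = 0.0894), and Ly6c1, 379 kb off (0.11, SE 0.16, adjusted p = 0.615). Tigd5 had the largest change (1.65, SE 0.41, adjusted p = 0.00394), from 0.469 to 1.51 CPM.

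**Figure D5:**
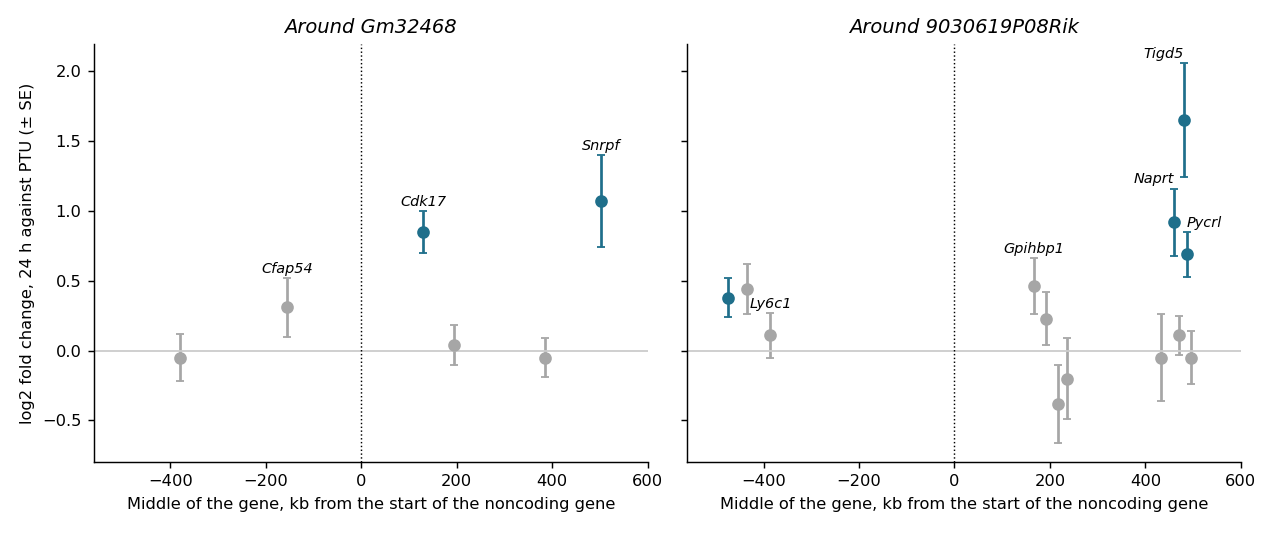
log2 fold change at 24 h in WT mice (points; bars are SE from edgeR) of the tested genes within 500000 bases of each noncoding gene, against the distance of their middle from its start in kb; blue marks adjusted p under 0.05. No neighbour changed by more than 1.65, and the nearest tested genes of 9030619P08Rik were not called.

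The Ly6 genes related to the pseudogene were measured for comparison. Of 35 family genes listed, 6 were tested in WT mice; 3 were called higher at 3 h, and 2 each at 6, 12 and 24 h, when 5.1%, 12.1%, 13.6% and 17.2% of all genes were. None was called lower. Ly6a, a surface marker of endothelium and progenitor cells, rose early, from 63.0 ± 8.15 to 115 ± 22.3 CPM at 3 h (0.84, SE 0.18, adjusted p = 0.00457, edgeR). It stood at 71.9 ± 13.4 CPM at 12 h (0.20, adjusted p = 0.458, edgeR), when 9030619P08Rik was near its 24 h level. Ly6c1 had 70.4 ± 12.9 CPM at 3 h and 47.8 ± 10.7 at 24 h, from 44.2 ± 6.57. Ly6e had 105 ± 17.9 CPM at 3 h and 73.3 ± 10.1 at 12 h, from 68.3 ± 5.25 (SD, n = 4 each). All 3 stood at 44.2 CPM or more under PTU, where 9030619P08Rik had at most 2 counts in a mouse. Ly6g had no count in WT mice at 6 and 12 h and at most 2 in a mouse at 24 h, and I830127L07Rik, which shares the stretches of 50 bases, had at most 1, 0 and 2 counts in a mouse at these times. Both were higher at 3 h, when 9030619P08Rik had 2 to 6 counts. Then Ly6g had 0 to 15 and I830127L07Rik 1 to 6 counts in a mouse. Lynx1, which codes for a partner of nicotinic receptors, rose at 6, 12 and 24 h, from 6.11 ± 1.33 to 30.6 ± 3.70 CPM at 24 h (2.31, SE 0.17, adjusted p = 2.06e-09, edgeR). It was not called in BATKO mice after TH (-0.10, SE 0.22, adjusted p = 0.987, edgeR), where 0% of all genes were. Gpihbp1 was not called at any time in WT mice.

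Markers of the tissue and of other cells were read beside the time course. Summed brown adipocyte markers ran from 6290 to 8520 CPM under PTU and from 8720 to 16425 CPM at 24 h in WT mice, and adipocyte markers from 8140 to 9300 and from 4020 to 4300 CPM. Endothelial markers (285 to 306 and 273 to 306 CPM), macrophage markers (10 to 15.1 and 12.4 to 19.5), red cell markers (165 to 256 and 106 to 269), Schwann cell markers (50.8 to 79.5 and 47.9 to 83.9) and skeletal muscle markers (58.4 to 591 and 240 to 1020) overlapped between these groups. In the same groups markers of T and B cells summed to at most 1.19 CPM, and those of liver to at most 0.824 CPM with Ttr at 0. The epithelial markers Epcam, Krt8 and Krt18 were at 0 in all WT mice at 24 h. Without Ucp1 and Dio2 the brown adipocyte markers ran from 1680 to 2170 CPM under PTU and from 976 to 1180 CPM at 24 h. Between PTU and 24 h the whole brown adipocyte sum was thus higher, and the sum without these target genes and the adipocyte sum lower, each without overlap, and their part in the values of the noncoding genes was not tested.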

How the data were processed

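BAT RNA was extracted with Trizol, made into libraries with the Lexogen total RNA SENSE kit and sequenced on a NextSeq, per the labels. The authors aligned reads to GRCm38 with Bowtie (the submitters' notes name Bowtie2 2.3.2.2 and DESeq2), removed reads with an alignment quality under 10 and counted them per gene with htseq-count. The deposited values are raw counts per gene; the annotation and strand setting are not given in the sources used here. Of 55341 gene names, 55327 were found in GENCODE vM21, and promoters came from RefSeq. edgeR 4.0.16 in R 4.3.3 (quasi-likelihood test, TMM, mean normalized count over 10, Benjamini-Hochberg) was fitted to whole tables: the 20 WT mice for WT contrasts and all mice of a table otherwise (30, 16 and 13). Printed edgeR SEs are the log2 change divided by the square root of F, which is approximate at low counts. A gene under the filter was given an exact two-sided permutation test of mean CPM. Log2 CPM for correlations used a prior count of 2. DESeq2 1.42.0, other scalings, other filters and leaving out each mouse were alternatives. The edgeR test was checked on simulated counts. Transcripts were aligned with blastn 2.17.0. The genes and the lists of pathway genes, Ly6 family and markers were chosen with earlier results of these data known. Named neighbours were the nearest tested gene on each side and the one with the largest change at 24 h; named similar genes were the 5 with the highest Pearson correlation; of the pathway, receptors, deiodinases, Hr, Klf9, Thrsp and Me1; of the Ly6 family, those with a mean normalized count over 50. No 2 mice of a group had counts alike within sampling noise (chi-square per degree of freedom 6.81 or more in 91 pairs). P-values measure the spread between these mice.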

Additional observations from a re-analysis of the deposited data

Results flagged for a closer look

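Over both genes, 22 searches were made for a mouse standing apart, 1 for each gene and group of 4 or 5 mice in which a count was found. The measure was the distance between that mouse and its closest neighbour as a share of the span from lowest to highest. In 8 searches a mouse passed the 95% critical value, against about 1.1 by chance. In 7 of them the ratio was 1, which arises whenever every mouse but one has no count. These were Gm32468 in PTU-fed BATKO mouse 4 (12 counts), in BATKO mouse 16 at 30 °C (1 count), in CTRL mouse 1 on chow (1 count) and in CTRL mouse 9 on HFD (2 counts). They were also 9030619P08Rik in PTU-fed WT mouse B5 (2 counts), in PTU-fed BATKO mouse 4 (4 counts) and in BATKO mouse 12 at 4 °C (3 counts). The eighth was 9030619P08Rik at 3 h, with a ratio of 0.926, where WT mouse B11 had 2 counts and the other mice 6 each. Only BATKO mouse 4 was over the floor of 3 counts, and it was so for both genes.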

How the results depend on the processing

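No paired analysis was possible because mice of the groups compared within a genotype carry different numbers, while a number found in both genotypes names separate mice. Alternatives on the fits with no filter were chosen after seeing the data. Leaving out 1 mouse at a time, the exact test no longer passed 0.05 for Gm32468 in cold CTRL mice (3.17 to 5.06 CPM higher) and between genotypes at 4 °C (-4.97 to -3.08), nor for 9030619P08Rik in cold CTRL mice (0.115 to 0.174), since fewer mice cannot reach it. It was also lost when most single mice were left out for Gm32468 in cold BATKO mice (0.158 to 0.341; log2 2.68 to 4.56 in edgeR) and for 9030619P08Rik between genotypes at 30 °C (0.157 to 0.241). It was gained for Gm32468 between genotypes at 30 °C without CTRL mouse 19 (-0.217 to -0.106) and for 9030619P08Rik on HFD in CTRL mice without mouse 10 (0.128 to 0.254). The sign turned in comparisons that were never called: Gm32468 on HFD in CTRL (-0.0265 to 0.0627; log2 -1.54 to 2.39), between genotypes on HFD (-0.0627 to 0.115; log2 -2.36 to 3.42), its interactions with temperature (log2 -1.82 to 0.04) and diet (-0.85 to 4.96), and 9030619P08Rik on HFD in BATKO (-0.0341 to 0.0768; log2 -0.16 to 0.65) and between genotypes on HFD (-0.0447 to 0.0808; log2 -0.22 to 0.74). Gm32468 between genotypes on chow ranged from log2 -1.82 to 0.00. With no filter edgeR did not call 9030619P08Rik in cold CTRL mice (log2 3.83) or between genotypes at 30 °C (4.16); the cause was not tested. Fitted with all 30 mice, 0 pathway genes were lower at 3 h. With a count filter, DESeq2 and the stricter filter were not run for the noncoding genes under temperature and diet, where these lay below it; DESeq2 with no filter gave Gm32468 a log2 change of 4.59 in cold CTRL mice and -4.01 between genotypes at 4 °C. CPM outside the mitochondrial genome gave higher levels, for Gm32468 at 24 h 157.7 against 77.1, and in 16 of 30 group means the shift was over 1 SD between mice. With Spearman, 2 of the 5 genes most like Gm32468 and 1 of those most like 9030619P08Rik stayed. Counts of 0 to 12 per mouse limit every value outside WT mice after TH and cold CTRL mice. For 9030619P08Rik they were as low in cold CTRL mice (1 to 2) and in WT mice at 3 h (2 to 6).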

Other observations

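The BATKO mice of the TH experiment differed among themselves in T3 target genes. The 3 highest values of Hr among the 10 mice, 3.77, 3.96 and 4.62 CPM, were in mice 4, 7 and 9. The same mice had the 3 highest values of Gm32468, 0.768, 0.557 and 0.586 CPM. For 9030619P08Rik the 3 highest were in mice 7, 8 and 4 (0.309, 0.271 and 0.256 CPM), with 0.0733 CPM in mouse 9. Mouse 4 was PTU-fed without hormone and mice 7 and 9 had received TH. Klf9 was 123 CPM in mouse 4, 126 in mouse 7 and 150 in mouse 9, but highest in TH-treated mouse 8 (208 CPM), which had 1 count of Gm32468. These values were noticed after the data were seen and were not tested.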
